A study of Homo sapiens with 24 samples.

Results

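The genes described here are 56 genes of the short arm of human chromosome 10 (10p), selected on their measured signal: the region had been seen lower in a line induced to express DPPA3 and in 1 of 2 DPPA3 knockout clones of the same cancer line. Each gene was read from its brightest probe set, the group of probes summarised to 1 value, among those that map to 1 gene symbol. Of the 56 genes, 52 were measured in this way, out of 17448 genes in all; NSUN6, BMI1, MTPAP and EPC1 were not analysed here. The measured genes run from ZMYND11, nearest the end of the arm, to CUL2. Because the list was drawn from values in the induced line and clone 75, the shifts in those 8 arrays are given as a description; counts of calls there stand beside the share of all genes, and nothing is read from them.

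All 24 arrays were of SW1222 cells, a line established from a human colorectal cancer, grown at 21% oxygen. SW1222 cells engineered for DPPA3 overexpression (DPPA3-OE), here the induced line, and their control line (control-OE) both received 5 µg/ml doxycycline: for the last 5 days of growth as colonies embedded in Matrigel (3D, 3 arrays per line), or for 4 hours in 2D culture (3 arrays per line). Without doxycycline in the labels, the 3D experiments compared cells with a control shRNA against cells with an shRNA to DPPA3 (3 arrays each), and cells with a scrambled guide RNA against CRISPR DPPA3 knockout clones 66 and 75 (2 arrays each). Clones 66 and 75 are each a single clone; the labels leave unstated whether the induced line is a clone or a pool. Nothing in them says that replicate arrays came from separate cultures, so a p-value here reflects array-to-array spread, which may be technical.

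Genes next to one another on a chromosome arm need share no function. What they share is their copy number: cancer cell lines gain and lose whole arms, and transcripts of most genes in a lost segment then fall together, each by a modest amount, while others hold their level. A fall of many neighbours can also be seen without a change of DNA when chromatin is silenced over a long region. Neither copy number nor chromatin was measured on these arrays.

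All 6 colon epithelium markers on a list of defining genes lay above the median gene (log2 signal 6.64 to 9.60), against 1 of 6 fibroblast, 1 of 4 leukocyte and 0 of 2 endothelial markers. Between the 8 arrays of the induced line and clone 75 and the other 16, the summed level of the colon list was 49.04 and 48.65, of the fibroblast list 18.58 and 18.59, of the leukocyte list 11.99 and 12.33 and of the endothelial list 5.67 and 5.66. Within the colon list, LGR5, a stem cell receptor, averaged 7.17 in the 8 arrays and 6.38 in the 16, and KRT20, a keratin of differentiated cells, 7.60 and 8.15; their part in the results was not tested. DPPA3 read 3.77 to 6.16 in the 6 induced arrays and 2.55 to 3.47 in the other 18. The arrays labelled clone 75 and clone 66 averaged 3.04 and 2.69 against 2.85 with the scrambled guide, and those labelled DPPA3 shRNA 2.87 against 2.91 with the control shRNA, so at this low signal the target's level does not check the knockout and shRNA labels. Replicates of a group correlated between 0.987 and 0.994 over all genes. A bulk array cannot separate less RNA in every cell from a smaller share of cells that carry it.

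Upstream stretches of 4 genes are shown for members with a deep fall or with values near 0. MASTL had the lowest sum of the 3 fold changes described below, CDC123 and NUDT5 are neighbours that start head to head, and VIM and CUBN gave values near 0. The 250 bases before each RefSeq gene start are printed 5′ to 3′ on the gene's strand (GRCh38.p14), with each CG pair in capitals. They lie at chr10:27155102-27155351 (plus strand) for MASTL, chr10:12195938-12196187 (plus strand) for CDC123, chr10:17227991-17228240 (plus strand) for VIM and chr10:17129812-17130061 (minus strand) for CUBN.
MASTL: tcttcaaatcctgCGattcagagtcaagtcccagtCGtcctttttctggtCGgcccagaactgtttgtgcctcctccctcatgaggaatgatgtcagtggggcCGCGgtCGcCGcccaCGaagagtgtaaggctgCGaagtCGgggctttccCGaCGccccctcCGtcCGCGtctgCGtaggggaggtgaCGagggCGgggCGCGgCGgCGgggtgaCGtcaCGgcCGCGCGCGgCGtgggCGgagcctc
CDC123: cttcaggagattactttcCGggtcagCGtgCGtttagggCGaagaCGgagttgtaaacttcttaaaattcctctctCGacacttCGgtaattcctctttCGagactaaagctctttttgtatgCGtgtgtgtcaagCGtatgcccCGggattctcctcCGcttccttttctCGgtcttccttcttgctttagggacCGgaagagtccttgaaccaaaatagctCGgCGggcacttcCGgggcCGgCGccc
VIM: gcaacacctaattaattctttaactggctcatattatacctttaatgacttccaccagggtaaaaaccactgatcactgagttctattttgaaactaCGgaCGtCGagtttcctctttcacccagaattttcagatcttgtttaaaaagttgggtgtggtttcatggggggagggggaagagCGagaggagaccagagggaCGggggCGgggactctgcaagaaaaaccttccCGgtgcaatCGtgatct
CUBN: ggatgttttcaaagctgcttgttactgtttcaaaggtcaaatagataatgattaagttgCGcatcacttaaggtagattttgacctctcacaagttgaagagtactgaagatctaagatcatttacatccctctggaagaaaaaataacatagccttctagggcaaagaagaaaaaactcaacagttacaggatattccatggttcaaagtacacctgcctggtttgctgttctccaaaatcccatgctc
The stretches hold 30 CG pairs for MASTL, 19 for CDC123, 8 for VIM and 1 for CUBN. The CDC123 stretch fills most of the 297 bases between the starts of CDC123 and of NUDT5 on the other strand, so both genes read away from the same region. Over windows of 300 bases (250 before and 50 after the start), taking the richest start of each gene, the 49 members with an entry held a median of 32 CG pairs, and 85.7% of them held 20 or more. The share was 64.3% over the 13864 genes tested that had an entry and 80.5% over those above the median signal, so the members' share lay nearer that of well-expressed genes. Members above and at or below the median signal held medians of 33 and 28.5 CG pairs. A rich start did not go with a deep fall in every case: DIP2C held the most of any member, 59, and gave 0.12, -0.14 and -0.30 in the 3 contrasts below. Its signal of 3.48 lay below the median gene, where shifts were smaller, and the part of this was not tested.

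Read as 1 value per array, the block of 52 genes was low in all 8 arrays of the induced line and clone 75. Each gene was centred on its mean over the 9 group means, and the median over the genes was taken as the array's block level. It ran from -0.47 to -0.17 (median -0.33) on the log2 scale in the 8 low arrays and from 0.04 to 0.28 (median 0.15) in the other 16. Group means were -0.37 (SD 0.09, n = 3) for the induced line in 3D, -0.23 (SD 0.06, n = 3) in 2D and -0.43 (SD 0.06, n = 2) for clone 75. Clone 66, made with the same target, stood at 0.19 (SD 0.04, n = 2), above its scrambled control at 0.09 (SD 0.06, n = 2). The control shRNA and DPPA3 shRNA groups stood at 0.21 (SD 0.07, n = 3) and 0.19 (SD 0.05, n = 3). RMA's normalization sets the medians of arrays nearly alike. The median of the centred values over all genes ran from -0.018 to 0.023. Uncentred, the arrays' medians over all probe sets ran from 4.01 to 4.12. When arrays were shifted to equal medians, the gap between the highest low array and the lowest other array narrowed from 0.22 to 0.13.

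**Figure D1:**
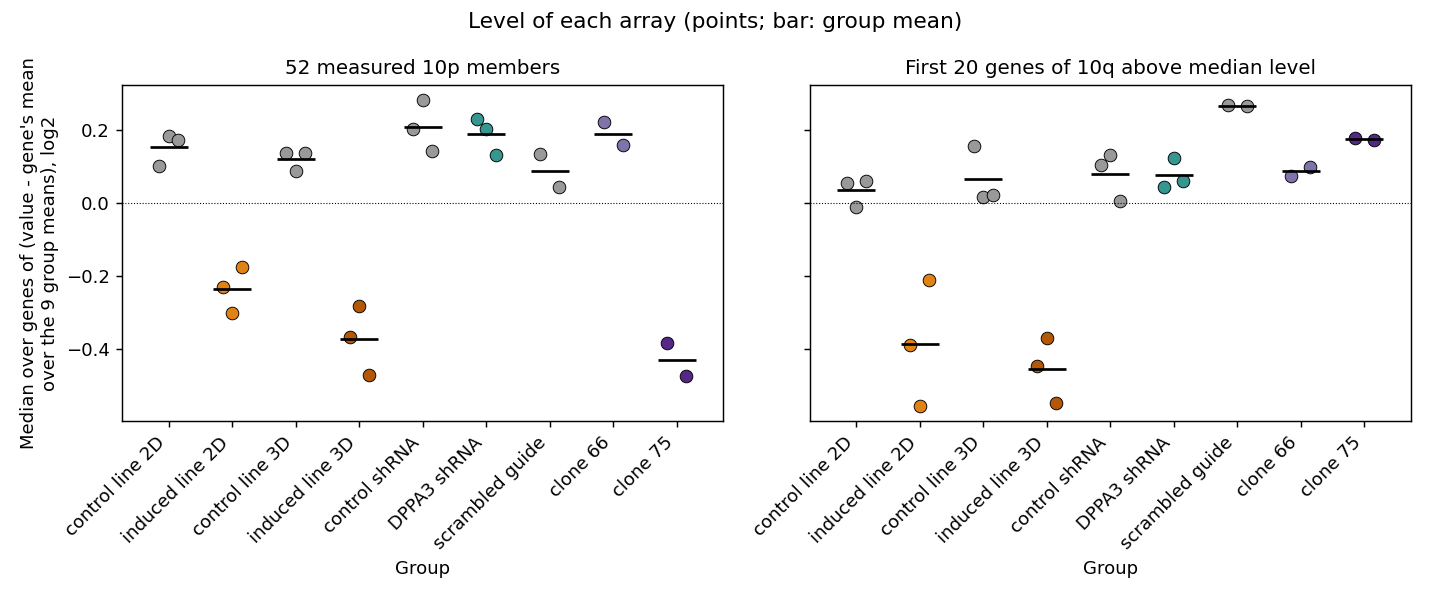
Level of each array for the 52 measured 10p genes (left) and for the first 20 genes of 10q above the median signal (right), as the median over genes of the log2 value minus the gene's mean over the 9 group means. Points are arrays and bars are group means; the 8 arrays of the induced line and clone 75 are low on the left, and only the 6 induced arrays are low on the right.

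The typical member read well below its control in each of the 3 contrasts. The median log2 fold change was -0.50 for the induced over the control line in 3D (70.8% of control), -0.50 in 2D (70.7%) and -0.47 for clone 75 over the scrambled guide (72.2%), against -0.0095, 0.0045 and -0.0015 over all genes. In 3D, 49 of 52 members were below 0 and 31 were called lower (limma, adjusted p under 0.05, across all genes; 2.77% of all genes were). In 2D, 50 were below 0 and 26 were called lower (1.26% of all genes), and in clone 75 all 52 were below 0 and 21 were called lower (0.481% of all genes). No member was called higher in any of the 3 (2.93%, 1.87% and 0.138% of all genes). None was higher at an unadjusted p under 0.05 either, against 1371, 1333 and 653 of all 17448 genes. All arrays lay below all controls for 35 members in 3D, 35 in 2D and 43 in clone 75 (9.57%, 7.09% and 20.7% of all genes), and above them for none (8.71%, 9.61% and 19.8% of all genes). The choice of members fixed these directions. The clone 75 count rests on 2 arrays a group: it fell to 5 without scrambled-guide replicate 1, to 10 without replicate 2, to 11 without clone 75 replicate 1 and to 6 without replicate 2, while the median stayed between -0.56 and -0.44.

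The 3D and 2D values of the induced line were close although doxycycline was given for 5 days in one and 4 hours in the other. No member was called lower or higher in the difference of the 2 induction effects (0.138% and 0.103% of all genes). At an unadjusted p under 0.05, 2 were lower and 2 higher, against 918 and 648 of all 17448 genes. The median of that difference over members was -0.03. Across members the 2 sets of fold changes correlated at r = 0.79 (n = 52 genes, from the same line, with separate control arrays). Those of the induced line in 3D and clone 75 correlated at r = 0.55. Among the 40 members above the median signal of all genes, the 2 values were r = 0.75 and r = 0.39. These are descriptions over neighbouring genes read on the same arrays.

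For 17 of the 52 members (32.7%) all 8 low arrays lay below all 16 others, against 0.166% of all genes. Of the 16800 genes outside chromosome 10, 6 did the same, as did 6 of the other 94 genes of 10p and none of 502 on 10q. The choice of members as low in these 8 arrays favoured their share, so nothing is read from it. The 17 were ZMYND11, LARP4B, NET1, USP6NL, PHYH, PRPF18, NMT2, RSU1, MLLT10, KIAA1217, THNSL1, ABI1, ACBD5, YME1L1, MASTL, RAB18 and WAC. They span the arm from its first measured member to near its last. Called in all 3 contrasts were 15 members, out of 34 such genes in the genome, 21 of them on 10p; 17 members were called in none.

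The genes of DNA repair, mitosis and ubiquitin ligases held the member with the lowest sum of the 3 fold changes. MASTL, the Greatwall kinase that holds back a phosphatase during mitosis, read 4.27, 4.52 and 4.30 in the induced 3D arrays and 5.21, 5.24 and 5.40 in their controls. It read 4.85, 4.43 and 4.62 against 5.01, 5.76 and 5.98 in 2D, and 3.88 and 4.02 in clone 75 against 5.13 and 4.95 with the scrambled guide. Its log2 fold changes of -0.92 (SE 0.19), -0.95 and -1.09 gave that sum, and no low array reached a control array. CUL2, the scaffold of the ligase that VHL directs at hypoxia-inducible factors, read 4.49, 4.68 and 4.45 against 5.41, 5.25 and 5.27 in 3D. In clone 75 it read 4.17 and 4.20 against 5.18 and 5.04; its fold changes were -0.77, -0.55 and -0.93. KIN, a zinc finger protein that binds curved DNA, gave -0.74, -0.39 and -0.88, the 2D value not called, at a signal of only 3.70, below the median gene. DCLRE1C, the Artemis nuclease of end joining, gave -0.29, -0.38 and -0.43. ASB13, a substrate receptor of cullin ligases, gave -0.26, -0.20 and -0.12, with 4.58 and 4.39 in clone 75 overlapping its controls at 4.52 and 4.70. The group's medians over its 5 members were -0.74, -0.39 and -0.88.

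Genes of RNA processing and protein synthesis were below 0 in 9 of 9 members in each contrast, with medians of -0.67, -0.59 and -0.61. In 3D, 2D and clone 75, 8, 7 and 3 of them were called lower (2.77%, 1.26% and 0.481% of all genes). PRPF18, a late-step splicing factor, read 4.66, 5.28 and 4.57 against 5.42, 5.51 and 5.96 in 3D, and 4.49 and 4.47 in clone 75 against 5.68 and 5.44. Its fold changes of -0.79, -0.88 and -1.08 were among the 5 deepest sums. GTPBP4, a GTPase of large ribosomal subunit assembly, had the largest fall of any member in 3D: 5.95, 6.42 and 5.88 against 7.14, 7.04 and 7.32 (-1.09, SE 0.12). It fell by 0.66 in 2D, where the arrays read 6.86, 6.74 and 6.92 against 7.43, 7.59 and 7.48. CDC123, an assembly factor of translation initiation factor eIF2, fell from one of the highest signals of the block: 7.26, 7.42 and 7.05 against 8.18, 8.15 and 7.97 in 3D (-0.85), then -0.61 in 2D, and gave -0.49, not called, in clone 75. LARP4B, a cytoplasmic RNA-binding protein, gave the even values -0.59, -0.55 and -0.72. CELF2, a splicing regulator, was called in none of the 3. It gave -0.16 and -0.18 in the induced line, with arrays that overlapped their controls, and -0.59 in clone 75, at 4.52 and 4.63 against 5.21 and 5.11; the difference between the 3D and clone 75 effects, 0.43, was not called. HSPA14, an Hsp70-like ribosome-associated chaperone (-0.85, -0.60, -0.61), and UPF2, a core factor of nonsense-mediated decay (-0.67, -0.50, -0.31), lay between.

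Metabolic and organelle enzymes held both deep and near-absent falls (medians -0.60, -0.51 and -0.67 over 11 members). NUDT5, which hydrolyses ADP-ribose, had the lowest value of all members in clone 75, at 4.19 and 3.76 against 5.10 and 5.40 (-1.28, SE 0.19). In the induced line it read 4.73, 5.24 and 4.86 against 5.57, 5.82 and 5.90 in 3D (-0.82) and gave -0.72 in 2D. NUDT5 was called lower in all 3, and its head-to-head neighbour CDC123 in both induced contrasts only; the difference between the 3D and clone 75 effects was 0.46 for NUDT5 and -0.36 for CDC123, and neither was called. ACBD5, a peroxisomal tether to the endoplasmic reticulum, read 6.11, 6.10 and 6.09 against 6.96, 7.04 and 6.81 in 3D, with fold changes of -0.84, -0.91 and -0.71. YME1L1, the ATP-dependent protease of the mitochondrial inner membrane, followed the block more closely than any other member: 6.97, 7.15 and 7.04 against 7.83, 7.70 and 7.79 in 3D, and 6.96 and 6.93 in clone 75 against 7.65 and 7.58. Its 3 fold changes were -0.72, -0.70 and -0.67, and the correlation of its 9 group means with the block was r = 0.996 after centring within each experiment. PITRM1, the mitochondrial presequence protease, gave -0.77, -0.62 and -0.32. THNSL1 gave -0.71, -0.55 and -0.998.

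**Figure D2:**
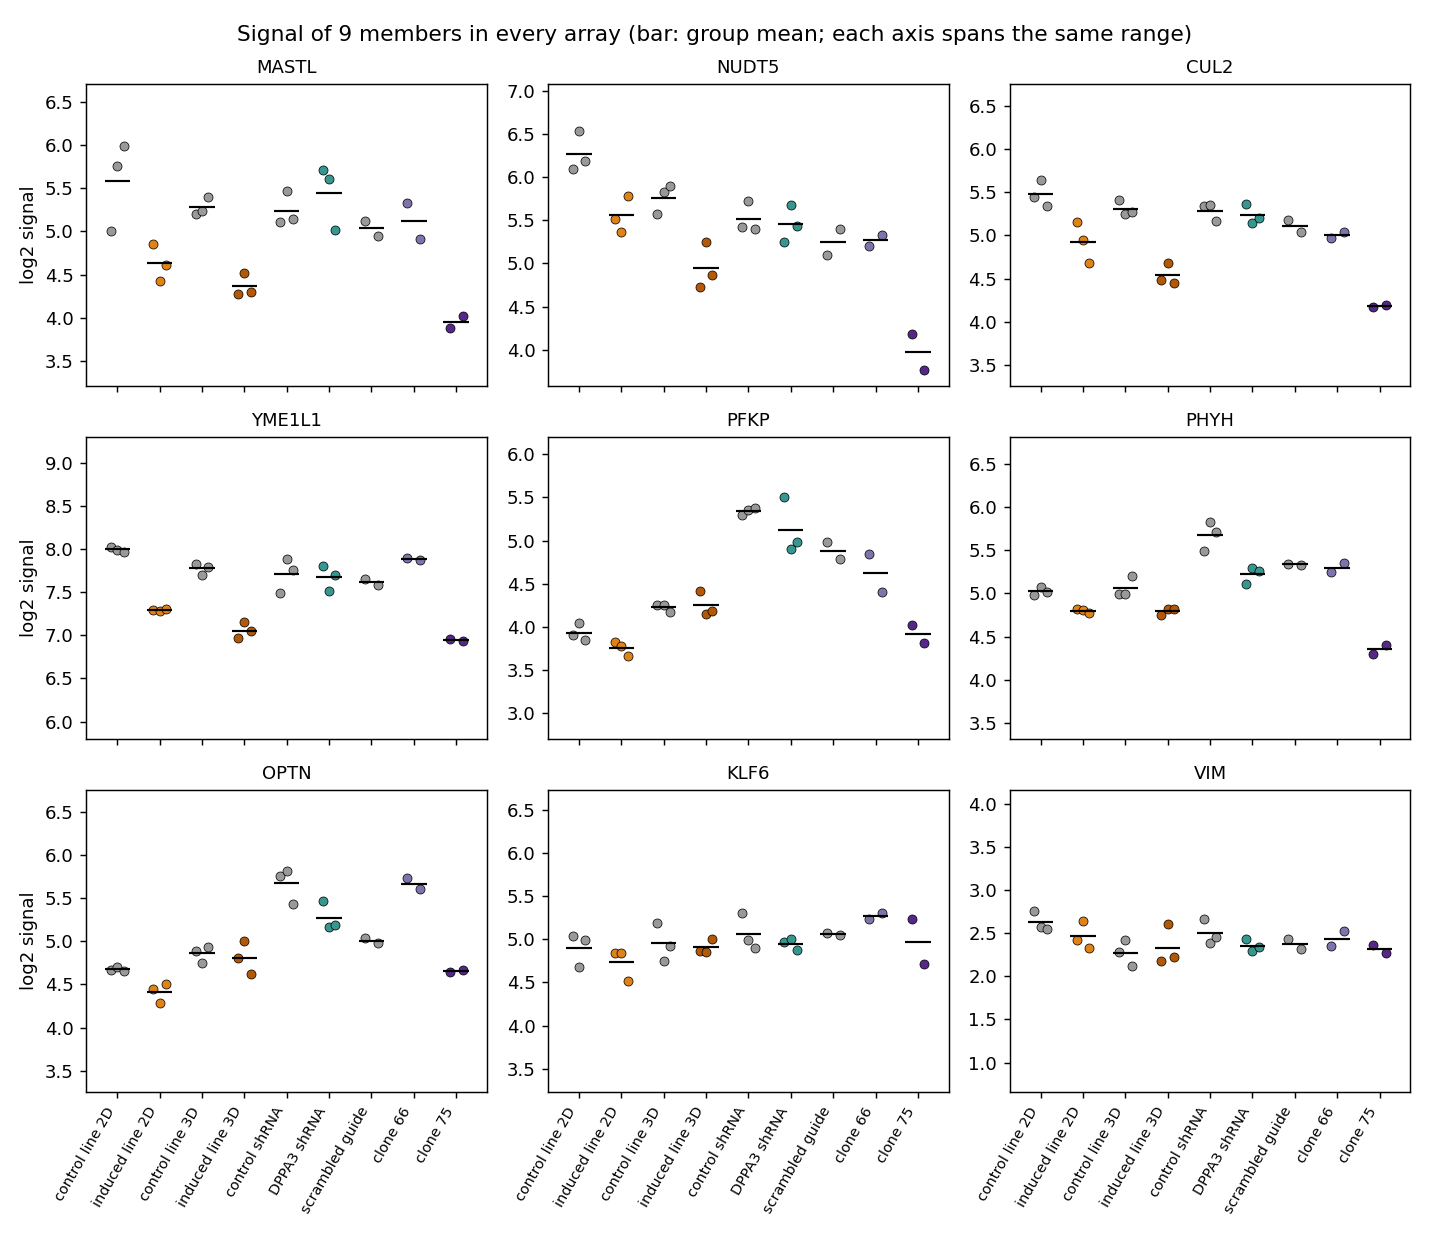
Log2 signal of 9 members in every array, by group; points are arrays, bars are group means and each vertical axis spans the same range. MASTL, NUDT5, CUL2 and YME1L1 are lower in the induced line and clone 75, PFKP and PHYH step down from their own controls mainly in clone 75, and KLF6 and VIM show no such step.

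Chromatin and transcription genes split by signal (8 measured members, medians -0.31, -0.42 and -0.21). ZMYND11, a reader of trimethylated histone H3.3, read 5.03, 5.15 and 4.93 against 5.93, 5.80 and 6.12 in 3D, with fold changes of -0.91, -0.69 and -0.70. WAC, an adaptor for histone H2B ubiquitination, gave -0.50, -0.56 and -0.59, and MLLT10, a partner of the H3K79 methyltransferase DOT1L, gave -0.52, -0.75 and -0.45. SUV39H2, an H3K9 methyltransferase, gave -0.38 and -0.56 in the induced line and -0.16 in clone 75, at 5.34 and 5.26 against 5.52 and 5.41. KLF6, SFMBT2, GATA3 and TAF3 were no lower than -0.28 in any of the 3. Of these, SFMBT2 and GATA3 had signals of 2.55 and 3.10, near the floor, while KLF6, a zinc finger factor, was read at 4.97 and gave -0.05, -0.17 and -0.09.

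Signalling, traffic and cytoskeleton genes, the largest group with 19 members, had medians of -0.44, -0.32 and -0.44. GDI2, which extracts Rab GTPases from membranes, was the brightest member at 7.85 and read 7.31, 7.47 and 7.36 against 8.04, 8.03 and 7.93 in 3D (-0.62), then -0.68 and -0.43. RSU1, a focal adhesion protein of the PINCH complex, gave -0.75, -0.79 and -0.54. NET1, a RhoA exchange factor, gave -0.76, -0.70 and -0.58, and its low arrays (6.27 to 6.73) ended well short of the others (7.05 to 7.50). CAMK1D, a calmodulin-dependent kinase, gave -0.44 in 3D, -0.88 in 2D and -0.69 in clone 75, called in the last 2; the difference of its 3D and 2D effects was not called. At the other end, VIM, the mesenchymal filament vimentin, had the lowest signal of the block, 2.41, and gave 0.06, -0.16 and -0.06. CUBN, the endocytic receptor cubilin, read 2.47 and gave -0.01, -0.02 and -0.05.

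No member escaped in the sense of a fold change at or above that of the median gene in at least 2 of the 3 contrasts. Members had been chosen as low in these same lines, so this bar was unlikely to be met and nothing is read from it. KLF6 (-0.05, -0.17 and -0.09), above the median signal, stayed near 0 without meeting it. Reading 1 contrast as enough, a criterion added after the values were seen, gave 6 genes: DIP2C, FRMD4A, MAP3K8, PFKP, SFMBT2 and VIM. All but PFKP lay below the median signal of all genes (4.09). PFKP's controls in the doxycycline experiment averaged 4.23 in 3D and 3.93 in 2D, near that median. MAP3K8 met the criterion in 2D only (0.02). In 3D it read 3.24, 3.35 and 3.47 against 3.65, 3.82 and 3.90 (-0.44), and it was called lower in 1 of the 3. SFMBT2 met the criterion in 3D with -0.0047 against -0.0095 for the median gene. Signal level and shift moved together across members. Spearman's rho between mean level and fold change was -0.65 in 3D, -0.68 in 2D and -0.39 in clone 75 (n = 52 genes on shared arrays). The part of the arrays' floor in this was not tested. The 40 members above the median gene had medians of -0.60, -0.55 and -0.59, and the 12 others -0.18, -0.14 and -0.18. Of the 40, 39 were below 0 in all 3 contrasts, and PFKP was the exception; of the 12, 8 were. Of the 17 members called in none of the 3, 9 lay at or below the median gene; the 8 above it were WDR37, ASB13, TAF3, DHTKD1, KLF6, OPTN, CELF2 and DNAJC1, with signals of 4.20 to 5.90.

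**Figure D3:**
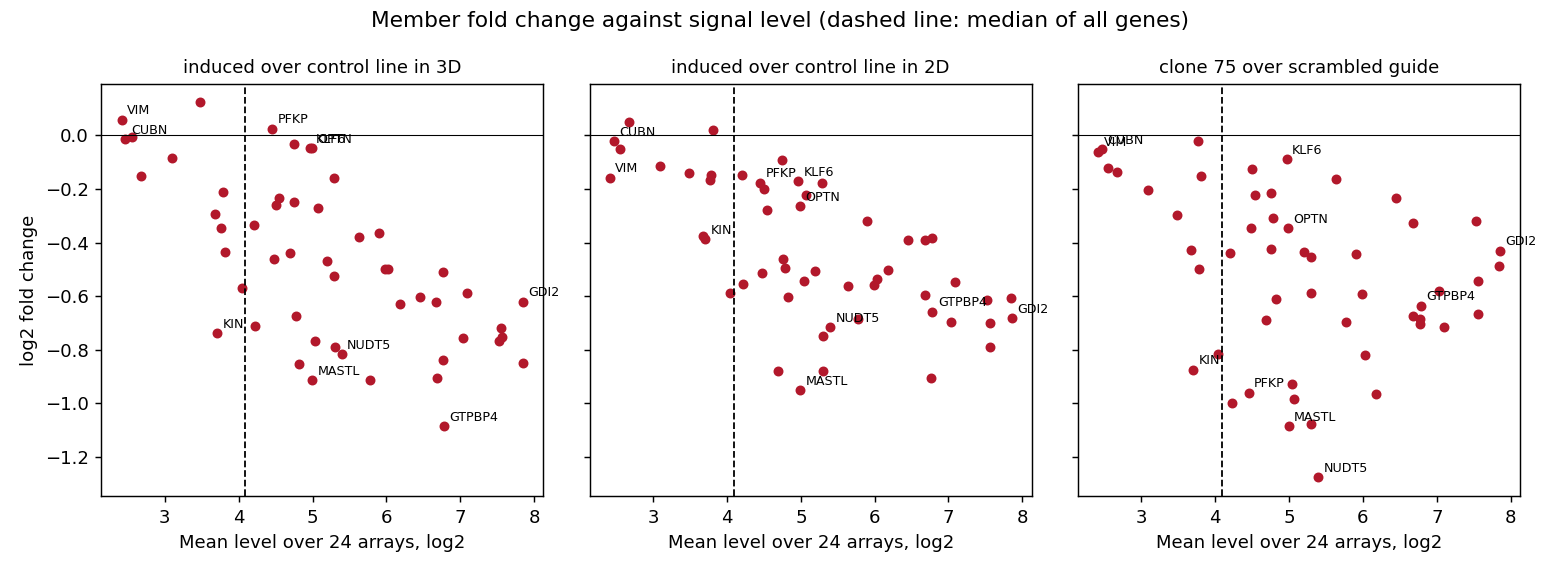
Log2 fold change of each of the 52 members against its mean log2 signal over 24 arrays, for the induced line in 3D, in 2D and clone 75. The dashed line is the median gene at 4.09. Members to its right have medians of -0.60, -0.55 and -0.59. Many to its left lie near 0, but KIN (-0.74, -0.39 and -0.88) and RPP38 (-0.57, -0.59 and -0.82) are well below 0.

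PFKP and PHYH were low in clone 75 and far less so, or not at all, in the induced line. PFKP, the platelet isoform of phosphofructokinase in glycolysis, read 4.42, 4.15 and 4.19 in the induced 3D arrays and 4.26, 4.26 and 4.17 in their controls (0.03, SE 0.13). In clone 75 it read 4.02 and 3.82 against 4.98 and 4.78 (-0.96, SE 0.16). PFKP was also lower in both lines of the doxycycline experiment (3.67 to 4.42 over 12 arrays) than in the shRNA cells (4.90 to 5.50) or with the scrambled guide. PHYH, the peroxisomal hydroxylase of phytanic acid, read 4.74, 4.82 and 4.82 against 5.00, 5.00 and 5.20 in 3D (-0.27), and 4.30 and 4.41 in clone 75 against 5.34 and 5.33 (-0.98). In the difference between the induction effect in 3D and the clone 75 effect, a contrast added after the values were seen, these 2 members were called higher and none lower (1.09% and 0.648% of all genes). PFKP's call was lost without scrambled-guide replicate 1 (0.89) or clone 75 replicate 2 (0.88), and PHYH's without scrambled-guide replicate 1 (0.71) or 2 (0.72) or clone 75 replicate 1 (0.66). At an unadjusted p under 0.05, 4 members were higher and 3 lower in it, against 1019 and 953 of all 17448 genes. The median of the difference over members was 0.06.

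**Figure D4:**
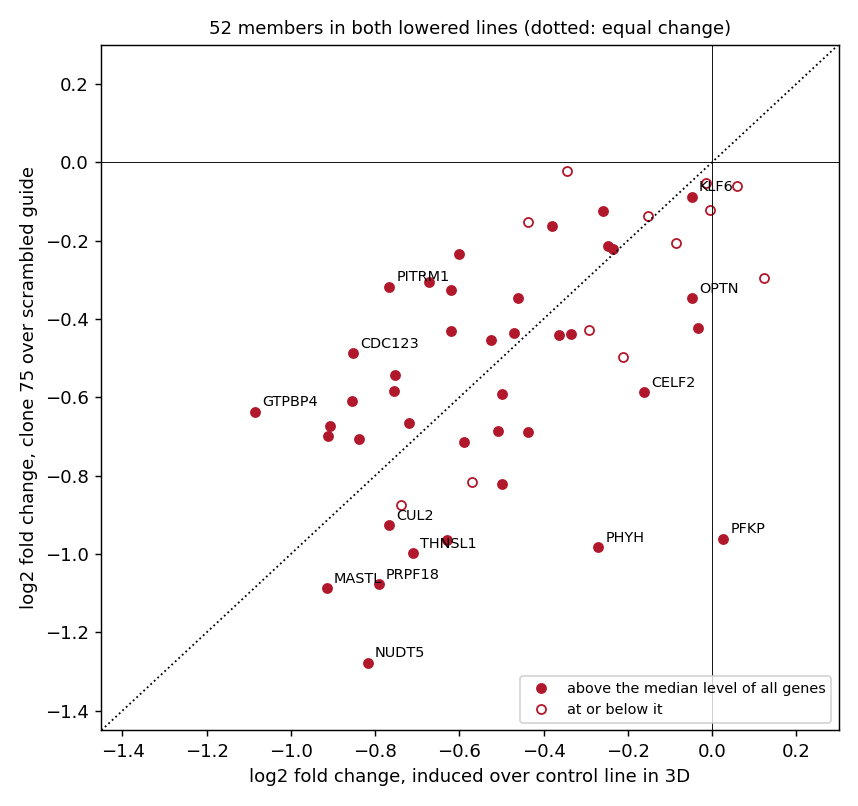
Log2 fold change of the 52 members in the induced line in 3D (horizontal axis) and in clone 75 (vertical axis); filled points lie above the median signal of all genes, and the dotted line marks equal change. All points lie below 0 on the vertical axis, and PFKP and PHYH lie far below the dotted line.

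Members were low in every stretch of the arm, in a direction that their choice had fixed. In 4 consecutive runs of 13 members from the end of the arm, the medians were -0.47, -0.44, -0.38 and -0.52 in 3D, -0.51, -0.39, -0.46 and -0.55 in 2D, and -0.44, -0.49, -0.42 and -0.69 in clone 75. The third run, PRPF18 to STAM, had the lowest median signal (4.48), and the fourth, MLLT10 to CUL2, the highest (5.90). The 94 other genes of 10p that were measured had medians of -0.12, -0.12 and -0.11 in 3D, 2D and clone 75, with 23, 17 and 10 called lower (2.77%, 1.26% and 0.481% of all genes). Of these, the 35 above the median signal had medians of -0.43, -0.42 and -0.51, with 21, 16 and 10 called lower. The 59 at or below it had medians of -0.02, -0.06 and -0.05, with 2, 1 and 0 called lower. Of the 35, 26 were below 0 in all 3 contrasts (2691 of all 17448 genes were). KIF5B, a kinesin heavy chain that lies between members, did not follow: its arrays read 8.80, 8.81 and 8.82 against 8.88, 8.73 and 8.91 in 3D, and 9.13 and 8.86 in clone 75 against 8.81 and 8.87. It was singled out after its values were seen. Beyond CUL2 towards the centromere, 10 genes were measured, 3 of them above the median signal. These were ZNF33A (-0.66, -0.57 and -0.68), CCNY (-0.20, -0.43 and -0.42) and FZD8 (0.07, 0.01 and 0.01). ZNF33A was called in 3D only and CCNY in 2D only.

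The 2 lowered lines differed beyond the centromere. Over the first 20 genes of 10q above the median signal, from LINC00839 to NRBF2, the induced line had medians of -0.61 in 3D (10 called lower, 2.77% of all genes) and -0.42 in 2D (8 called lower, 1.26% of all genes), and clone 75 -0.02 (1 called lower, 0.481% of all genes). HNRNPF, an RNA-binding splicing regulator, read 6.22, 6.40 and 6.05 against 7.21, 6.94 and 6.98 in the induced line in 3D, but 7.12 and 7.04 in clone 75 against 7.03 and 6.96. In the added contrast of the 2 effects, 6 of the 20 genes were lower (limma, adjusted p under 0.05, across all genes; 0.648% of all genes): BMS1, HNRNPF, PARG, ZWINT, TFAM and ARID5B. The difference was -0.91 for HNRNPF (SE 0.17, adjusted p = 0.00435 by limma) and -1.05 for TFAM (SE 0.15, adjusted p = 0.000237 by limma). BMS1 differed by -0.96 (SE 0.24). Leaving out 1 array gave -1.15 to -0.80 for BMS1, and its call was lost in 8 of 10 such fits. The count fell to 3 without control-line 3D replicate 1 or scrambled-guide replicate 1, and to 2 without scrambled-guide replicate 2 or either clone 75 array; HNRNPF was called in all 10 such fits. Over the next 3 runs of 20 genes the induced line was slightly higher than its control, with medians of 0.15, 0.20 and 0.24 in 3D, and clone 75 had medians of -0.03, 0.01 and -0.01. Members differed in the same contrast by a median of 0.06.

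**Figure D5:**
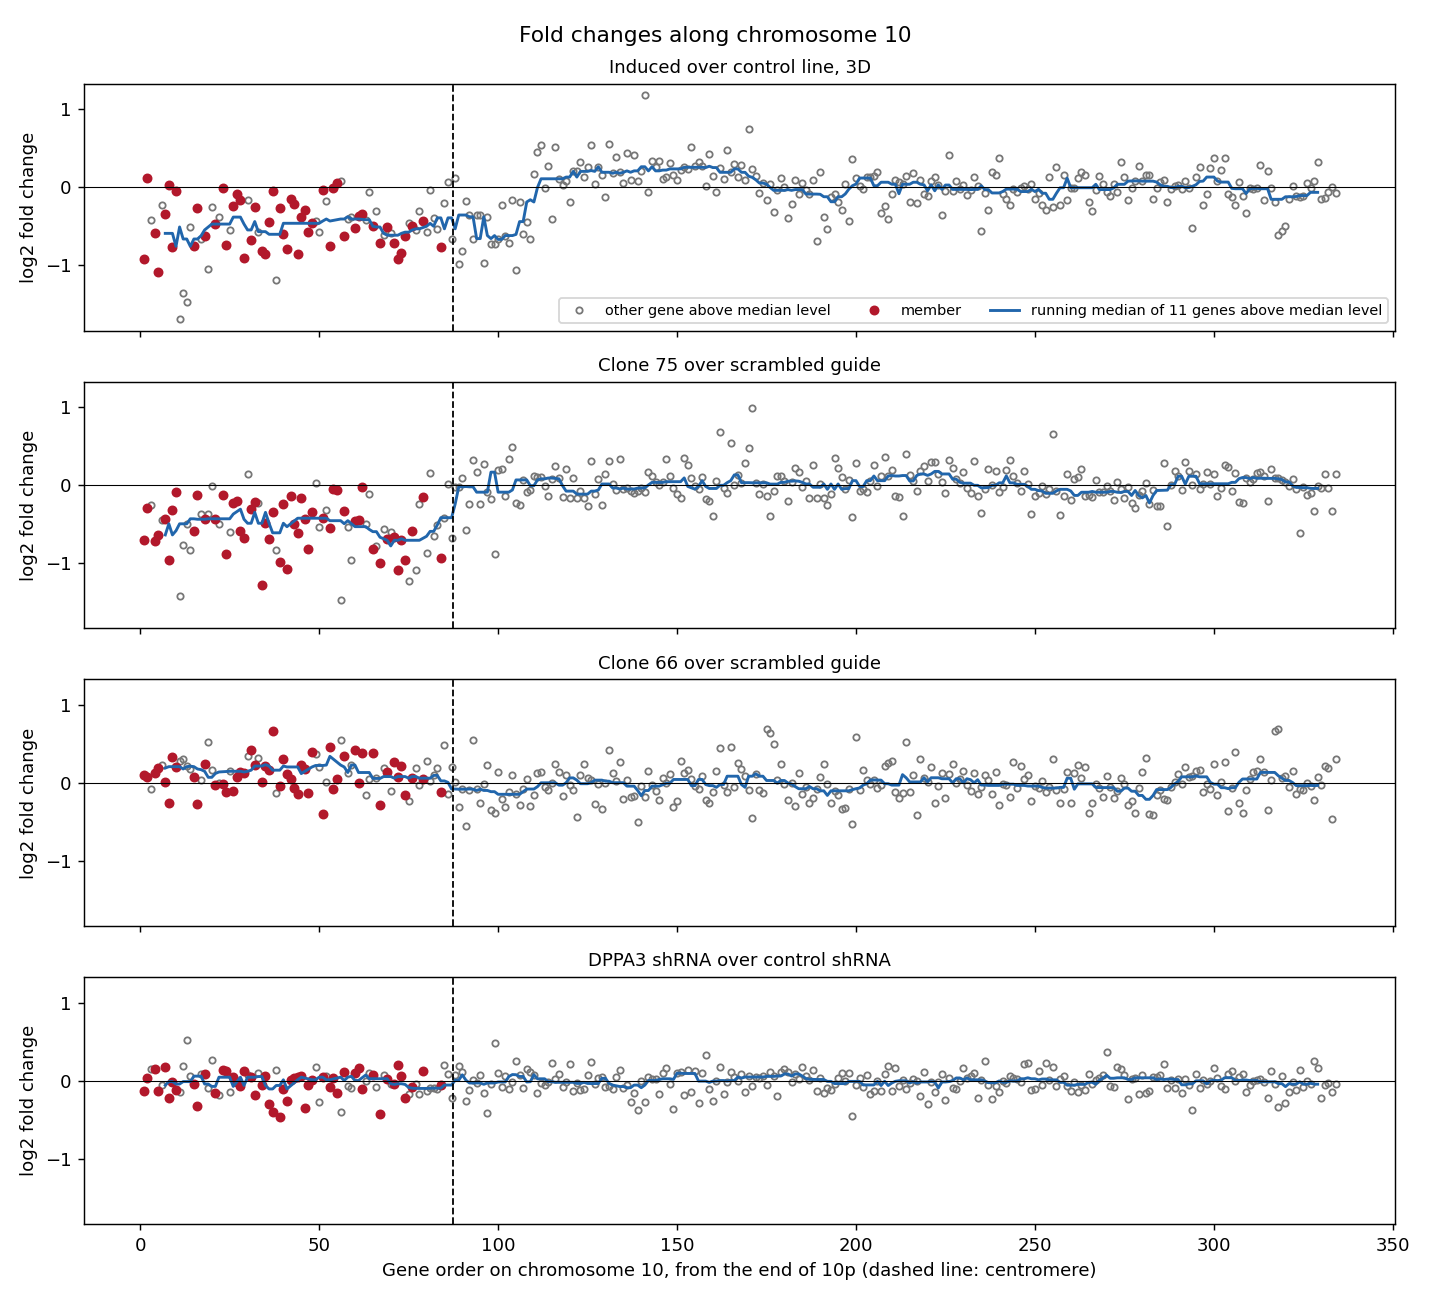
Log2 fold change of genes in order along chromosome 10, for 4 contrasts: the 52 members (red), 282 other genes above the median signal (open circles) and the running median of 11 genes (blue); the dashed line is the centromere. The induced line is low across 10p and into 10q, clone 75 is low on 10p only, and neither clone 66 nor the DPPA3 shRNA is low on 10p.

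In the DPPA3 shRNA arrays, which the choice of members did not use, the block did not shift as a whole. The median log2 fold change was -0.01 (range -0.46 to 0.21), 27 of 52 members were below 0, and none was called lower or higher (limma, adjusted p under 0.05; 0.0516% and 0.0344% of all genes). At an unadjusted p under 0.05, 6 of 52 members were lower and none higher, against 475 and 442 of all 17448 genes. All 3 shRNA arrays lay below all 3 controls for 6 members (5.62% of all genes) and above them for 3 (5.16%). PHYH had the lowest value, at 5.11, 5.30 and 5.26 against 5.49, 5.83 and 5.71. MASTL and CUL2, among the deepest falls elsewhere, gave 0.21 and -0.05 here.

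Clone 66, which shares its 2 scrambled-guide arrays with clone 75, leaned to higher values. The median was 0.09, 16 of 52 members were below 0, and both clone 66 arrays lay above both controls for 24 members (20.4% of all genes) and below for 7 (22.5% of all genes). 1 member was called higher and none lower (limma, adjusted p under 0.05, 0.871% and 0.562% of all genes). At an unadjusted p under 0.05, 9 were higher and 2 lower, against 851 and 815 of all 17448 genes. The member called was OPTN, an autophagy receptor, at 5.73 and 5.60 against 5.03 and 4.98 (0.66, SE 0.14, adjusted p = 0.00927 by limma). This call was lost without either scrambled-guide array (0.69 and 0.64) and without clone 66 replicate 1 (0.60). Since clones 66 and 75 share these controls, the clones were also set side by side. Clone 75 over clone 66 gave a median of -0.68, with 31 members lower (1.98% of all genes) and none higher (0.923% of all genes). None was higher at an unadjusted p under 0.05 either, against 790 of all 17448 genes. Leaving out 1 array gave 19 to 24 members lower, the 19 without clone 75 replicate 2. Values of this comparison carry the same clone 75 arrays that chose the members.

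Some members also differed between 3D and 2D culture within a line. Doxycycline was given for 5 days in 3D and 4 hours in 2D, so culture and exposure cannot be told apart. In the control line, 3D over 2D, 4 members were lower (limma, adjusted p under 0.05; 2.88% of all genes) and 1 higher (4.92% of all genes), around a median of -0.03. CDC123 read 8.18, 8.15 and 7.97 in 3D and 8.51, 8.70 and 8.64 in 2D (-0.52, SE 0.11, adjusted p = 0.00302 by limma). SUV39H2 fell by 0.41 (SE 0.09, adjusted p = 0.00715 by limma). ACBD5 fell by 0.41 and NUDT5 by 0.51, and KIN rose by 0.57. These last 3 calls depended on single arrays: ACBD5's was lost without control 3D replicate 3 (-0.35) or 2D replicate 2 (-0.37). NUDT5's was lost without 3D replicate 1 (-0.41) or 2 (-0.54) or 2D replicate 2 (-0.38) or 3 (-0.55). KIN's was lost without 3D replicate 1 (0.59) or 3 (0.51) or 2D replicate 1 (0.36) or 3 (0.56). When arrays were shifted to equal medians, 9 members in place of 4 were lower. With the spread taken from these 6 arrays alone, CDC123's was the only call of a lower level.

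In the induced line, 3D over 2D, 8 members were lower (7.35% of all genes) and 3 higher (7.55% of all genes), around a median of -0.09. CDC123 fell by 0.76 (SE 0.11, adjusted p = 1.66e-05 by limma), GTPBP4 by 0.75 (SE 0.12, adjusted p = 0.000128), HSPA14 by 0.54 (SE 0.11, adjusted p = 0.000676) and PITRM1 by 0.44 (SE 0.10, adjusted p = 0.00452). For these 4 genes all 3D arrays lay below all 2D arrays, and the calls held without any single array. NUDT5 fell by 0.61, CUL2 by 0.39, ZMYND11 by 0.37 and ACBD5 by 0.35, and PFKP rose by 0.50, CAMK1D by 0.44 and OPTN by 0.40. Each of these 7 calls was lost on leaving out at least 1 array: induced 3D replicate 1 (NUDT5 -0.50, CUL2 -0.36, ZMYND11 -0.37, ACBD5 -0.35, PFKP 0.41), 3D replicate 2 (ACBD5 -0.35, CAMK1D 0.39, OPTN 0.30) or 3D replicate 3 (CUL2 -0.34, ZMYND11 -0.32, ACBD5 -0.34, CAMK1D 0.41). On the 2D side these were replicate 1 (CUL2 -0.28, ZMYND11 -0.41, CAMK1D 0.36), replicate 2 (CUL2 -0.38, CAMK1D 0.43, OPTN 0.34) and replicate 3 (NUDT5 -0.50, ZMYND11 -0.24, ACBD5 -0.20, PFKP 0.45). Whether a member's 3D over 2D change differed between the lines is the difference of induction effects given above, in which no member was called. With the spread of these 6 arrays alone, the calls of ACBD5, CUL2, ZMYND11 and OPTN were also lost.

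Partners of the members' complexes that are encoded elsewhere had medians near 0. Of 76 such genes in 8 lists, 65 were measured. In the induced line in 3D, 2 were lower (2.77% of all genes) and 2 higher (2.93% of all genes), with a median of -0.05. At an unadjusted p under 0.05, 12 of the 65 were lower and 5 higher, against 1420 and 1371 of all 17448 genes. Lower were SUV39H1 (-0.51, SE 0.13, adjusted p = 0.0219 by limma), paralog of SUV39H2, and BRD8 of the NuA4 acetyltransferase (-0.42, SE 0.12, adjusted p = 0.0384 by limma). Higher were PFKFB2, which makes an activator of phosphofructokinase (0.49, SE 0.13, adjusted p = 0.0199 by limma), and CYFIP1 of the WAVE complex that ABI1 belongs to (0.37, SE 0.10, adjusted p = 0.0262 by limma). In 2D, clone 75, clone 66 and the shRNA arrays none of the 65 was called by limma, with medians of 0.03, 0.03, -0.02 and 0.01. At an unadjusted p under 0.05, 2 were lower and 9 higher in 2D, and 0 and 4 in clone 75. The counts were 3 and 4 in clone 66, and 4 and 1 with the shRNA. Over all 17448 genes they were 1043 and 1333, 764 and 653, 815 and 851, and 475 and 442, in the same order. The 5 measured partners of the CUL2 ligase gave medians of -0.19, -0.03 and 0.04 in 3D, 2D and clone 75, beside -0.77, -0.55 and -0.93 for CUL2 itself. The 6 measured partners of UPF2 gave -0.11, 0.07 and -0.01.

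Genes outside 10p that followed the block most closely over the 9 group means, centred within each experiment, were SH3BGRL, C1orf21, GAB2, SERPINI1 and CYP4X1 (r = 0.984 to 0.974). They lie on chromosomes X, 1, 11, 3 and 1. These genes were picked as the highest r among all genes above the median signal outside 10p, from only 9 group means. Such a choice favours high r, and whether they follow the block was not tested. CYP4X1, a cytochrome P450, shifted by more than any member, with -2.03, -1.18 and -1.53 in the 3 contrasts, and SH3BGRL by amounts like a member's, with -0.50, -0.59 and -0.39.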

How the data were processed

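The deposited table holds log2 values that the authors made with RMA in Partek 6.6, per the submitters' processing notes; no genome build of the probes is given in these sources. Of 20276 probe sets, 18062 had 1 gene symbol, 1288 several and 926 none. The brightest of a gene's probe sets gave 17448 genes, placed by the RefSeq table of GRCh38.p14, with 10p and 10q split at 40 Mb. No value was filtered out.

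All 24 arrays entered 1 limma fit (limma 3.58.1, R 4.3.3) with 1 coefficient per group, no covariate, eBayes and Benjamini-Hochberg adjustment over all genes; called means an adjusted p under 0.05. The fit was tested on simulated data. SE values are limma's moderated ones. The number of arrays limits the precision. The members, gene lists and tests were chosen with earlier results of these data known.

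Genes named were the 3 brightest of each role, the 5 lowest sums and members called in the other contrasts. The rule also named any member at or above the median gene in 2 of 3 lowering contrasts. From outside 10p it named the 5 genes above the median signal most like the block. Others were chosen after their values were seen. Alternatives were the mean of probe sets, the spread of each contrast's own arrays, equal medians, repeated quantile normalization, only genes above the median level, a trended prior, a replicate block, leaving out each array, and equal medians outside chromosome 10, added after the data were seen.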

Additional observations from a re-analysis of the deposited data

Results flagged for a closer look

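The difference between the induction effect in 3D and the clone 75 effect was called for 2 members by limma's test of that difference. PFKP was lower in clone 75 by 0.96 and not in the induced line, a log2 difference of 0.99 (SE 0.21). The call was lost without scrambled-guide replicate 1 (0.89) and without clone 75 replicate 2 (0.88). PHYH had a log2 difference of 0.71 (SE 0.15), and its call was lost without either scrambled-guide array (0.71 and 0.72) and without clone 75 replicate 1 (0.66). The contrast was added after the data were seen, and both effects had been used to choose the members.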

How the results depend on the processing

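In no alternative did the median shift of the block change sign in the induced line, clone 75 or clone 75 over clone 66. The members were chosen as low in these arrays, so that sign was fixed by the choice and its stability is no independent check. Among genes above the median level only, the median was -0.60 in 3D and -0.59 in clone 75. Leaving out 1 array gave medians of -0.56 to -0.44 and 5 to 11 members lower in clone 75, -0.72 to -0.62 and 19 to 24 for clone 75 over clone 66, 0.048 to 0.16 for the median of clone 66, and 0 to 1 member lower with the DPPA3 shRNA. It gave 2 to 5 members lower for the control line and 4 to 11 for the induced line, 3D over 2D, and 2 to 7 of the first 20 genes of 10q for the difference from clone 75. With only genes above the median level, 1 member was lower with the shRNA. With the spread of a contrast's own arrays, counts were 1 for the control line, 5 for the induced line and 3 for 10q. For the control line, equal medians gave 9, equal medians outside chromosome 10 also 9, and repeated quantile normalization 7; the gap between low and other arrays was 0.13 and 0.14 under the first 2. The cause of these changes was not tested. Same-numbered arrays did not deviate together (correlations -0.21 to 0.17), and with the replicate number as a block, 29, 24 and 20 members were lower in 3D, 2D and clone 75 and the median shifts were the same; it changed no count by over 1.5 times.

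With 2 or 3 arrays a group, the median SE was 0.12 in the induction contrasts and 0.15 for the clones, so members called in no contrast may still be lower. Copy number was not measured.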
